A study of Mus musculus with 12 samples.

Results

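Between the fibroblast and the induced pluripotent stem cell, the sorted reprogramming intermediates held 1610 genes at levels that neither end state reached. These genes are the members described here. A gene is a member when all 8 sorted libraries lay above, or all 8 lay below, all 4 libraries of the end states. The levels compared are read counts per 1000000 (CPM) on TMM-scaled library sizes. Of the 16240 genes with enough counts to be tested (of 37583 in the tables), 1610 were members (9.91%), 900 of them higher (5.54%) and 710 lower (4.37%) in the sorted libraries. The members were thus chosen by the measured levels, so their difference from the end states is a description and carries no test. Leaving out fibroblast replicate 1 raised the higher members to 1553, and leaving out fibroblast replicate 2 raised the lower members to 1262, with 899 of the 900 and all 710 among them.

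All cells carried the strain label 129SV/Jae/C57BL6J. The end states were mouse embryonic fibroblasts (MEF), kept in MEF media, and induced pluripotent stem cells (iPSC), kept in ES media, both with the mark 3/4 in their titles, which the labels do not explain. The 4 sorted groups came from reprogramming in ES media with dox and AA, as the labels abbreviate these additions, and were separated by surface markers on day 3 and day 6. How the reprogramming factors were delivered, and what Ineff and Eff stand for beyond these gates, is not given in the labels used here. On day 3 the d3 Ineff group was SSEA1+CD73-Sca1+ and the d3 Eff group SSEA1+CD73+Sca1-. On day 6 the d6 Ineff group was SSEA1+EpCAM-Sca1+ and the d6 Eff group SSEA1+EpCAM+Sca1-. The protocol names trypsin harvest, antibody staining and flow sorting for the cells, and each of the 6 groups had 2 replicate libraries. Whether the 2 libraries of a group came from different cultures or animals is not given in the labels used here, so a p-value reflects only how far these libraries spread, which may be technical. The sorted groups differed from MEF in the medium. From both end states they differed in the label of dox and AA and in the SSEA1+ gate that all 4 share. The part of these conditions and that of the stage of the cells cannot be told apart. Xist, on the X chromosome, was among the higher members, and a difference in the sex of the cells was not tested.

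Totals of gene counts ran from 9284060 in MEF replicate 2 to 22763548. In MEF replicate 2, 47.2% of uniquely placed reads fell outside genes, in d6 Eff replicate 2 24.1%, and in the other 10 libraries 5.10% to 11.7%. Fibroblast matrix and surface genes summed to 119790 and 55572 CPM in MEF against 2880 to 17564 in the sorted libraries and 1247 and 1220 in iPSC. Naive pluripotency genes summed to 12615 and 12901 CPM in iPSC, 861 to 1726 in the sorted libraries, and 230 and 155 in MEF. Both lists placed the sorted libraries between the end states, and the end states matched their labels.

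Reprogramming passes a fibroblast through states in which the fibroblast programme is shut down before the pluripotency network is established, and genes that belong to neither end state can be switched on or off on the way. Oxygen-sensitive transcription factors of the HIF family act on a short core element near the genes of glycolysis, angiogenesis and mitophagy, and their alpha subunits are destroyed when prolyl hydroxylases are active. ATF4 is the transcription factor of the integrated stress response, which raises amino acid synthesis and transport genes when amino acids run short or proteins misfold.

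The 3 gene lists with the highest share of lower members were hypoxia, glycolysis and ATF4 targets, so the promoters shown first are those of 7 lower members from these lists. All 7 hold the motif marked, which not every lower member does. In the windows counted below, 10 of 11 hypoxia genes and 8 of 13 glycolysis genes held their motif. In the ATF4 list 5 of 14 genes did. Each is the 250 bases before the start of the gene, 5′ to 3′ on the gene's strand, from RefSeq on the build GRCm38.p6. Capitals in the first 4 mark the hypoxia response core ACGTG or its reverse complement. In Slc16a3, which encodes the lactate exporter MCT4 (chr11:120948817-120949066, plus strand), the matches start 27 and 14 bases before the gene.
Slc16a3: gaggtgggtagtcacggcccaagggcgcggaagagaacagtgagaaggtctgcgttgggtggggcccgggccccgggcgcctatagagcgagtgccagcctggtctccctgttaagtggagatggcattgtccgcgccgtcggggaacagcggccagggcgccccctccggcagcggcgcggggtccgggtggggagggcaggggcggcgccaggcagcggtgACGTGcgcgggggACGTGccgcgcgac
Bnip3, which encodes a mitophagy receptor (chr7:138909507-138909756, minus strand), has a palindromic match that reads on both strands, 108 and 107 bases before the start.
Bnip3: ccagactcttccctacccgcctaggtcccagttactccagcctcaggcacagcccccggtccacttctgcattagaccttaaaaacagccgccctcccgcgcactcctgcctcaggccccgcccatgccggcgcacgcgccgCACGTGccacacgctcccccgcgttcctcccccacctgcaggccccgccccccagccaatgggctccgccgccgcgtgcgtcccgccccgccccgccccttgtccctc
Car9, which encodes a carbonic anhydrase of the cell surface (chr4:43506776-43507025, plus strand), has its match 18 bases before the start.
Car9: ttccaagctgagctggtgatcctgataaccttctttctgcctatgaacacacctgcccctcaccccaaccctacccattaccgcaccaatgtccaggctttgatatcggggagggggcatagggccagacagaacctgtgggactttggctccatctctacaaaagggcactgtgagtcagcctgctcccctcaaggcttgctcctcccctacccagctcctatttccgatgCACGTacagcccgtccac
Pgk1, which encodes the glycolytic enzyme phosphoglycerate kinase (chrX:106186850-106187099, plus strand), has matches 150 and 131 bases before the start.
Pgk1: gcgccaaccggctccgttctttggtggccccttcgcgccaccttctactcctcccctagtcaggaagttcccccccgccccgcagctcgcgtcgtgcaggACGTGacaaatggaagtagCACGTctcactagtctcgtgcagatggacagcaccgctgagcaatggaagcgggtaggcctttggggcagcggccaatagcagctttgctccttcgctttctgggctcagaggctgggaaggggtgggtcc

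In the last 3, capitals mark the C/EBP-ATF response element, searched as TGATGCAA or TGATGAAA on both strands. Asns encodes asparagine synthetase (chr6:7693210-7693459, minus strand), with a match 23 bases before the start.
Asns: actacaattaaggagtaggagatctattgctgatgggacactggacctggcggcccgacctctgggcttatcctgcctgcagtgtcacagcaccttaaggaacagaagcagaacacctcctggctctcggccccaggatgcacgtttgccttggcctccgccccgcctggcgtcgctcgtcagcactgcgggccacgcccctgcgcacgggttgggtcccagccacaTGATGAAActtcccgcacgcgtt
Chac1 encodes a glutathione-degrading enzyme (chr2:119350992-119351241, plus strand), with a match 193 bases before the start.
Chac1: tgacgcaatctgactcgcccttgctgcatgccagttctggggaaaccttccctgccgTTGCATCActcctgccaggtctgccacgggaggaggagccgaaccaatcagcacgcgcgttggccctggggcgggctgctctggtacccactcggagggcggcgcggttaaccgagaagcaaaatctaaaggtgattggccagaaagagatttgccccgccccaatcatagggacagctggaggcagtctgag
Nupr1 encodes a stress-induced nuclear protein (chr7:126625471-126625720, minus strand), with a match 110 bases before the start.
Nupr1: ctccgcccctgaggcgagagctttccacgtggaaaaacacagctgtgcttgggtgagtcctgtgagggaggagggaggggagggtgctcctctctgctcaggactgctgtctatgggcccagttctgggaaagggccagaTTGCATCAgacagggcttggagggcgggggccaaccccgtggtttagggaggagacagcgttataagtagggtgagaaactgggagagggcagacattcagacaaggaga

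Motif shares were counted in windows of 300 bases, from 250 before to 50 after each start, for the 11371 tested genes that the RefSeq table held (14541 windows). The core ACGTG, which also lies inside the E-box CACGTG, was in 24.4% of all windows. It was in 10 of the 15 windows of lower hypoxia members and in 10 of the 20 of lower glycolysis members. Lower ATF4-list members held it in 8 of 16 windows. The share was 29.5% of windows of all lower members and 17.2% of those of higher members. The response element was in 1.09% of all windows and in 5 of the 16 windows of lower ATF4-list members (Asns, Chac1, Fgf21, Nupr1 and Vldlr). Both motifs were added after the members were known. The E-box CACGTG, which contains the core, was in 6.33% of windows of higher members, 11.3% of lower members and 9.55% of all. Of the other motifs listed earlier, the octamer ATGCAAAT was in 2.58% of windows of higher members, 0.964% of lower members and 1.35% of all. ACAATG, bound by SOX factors, was in 9.01%, 7.99% and 7.52%, GGGTGTGG, bound by KLF factors, in 3.97%, 4.41% and 3.71%, and the AP-1 site TGAGTCA in 4.29%, 3.72% and 3.95%, in the same order. A CpG observed-to-expected ratio of at least 0.6 was found in 56.8% of windows of higher members, 59.2% of lower members and 65.2% of all. Lower members had it in 11 of 15 windows (hypoxia), 15 of 20 (glycolysis) and 14 of 16 (ATF4 list). The core ACGTG itself holds a CG. Each share describes letters in a window, and none shows binding.

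Members stood apart from the end states by a median of 1.96 (log2, mean of the 4 sorted groups minus mean of MEF and iPSC) among the higher and -1.97 among the lower. In the same contrast the edgeR quasi-likelihood test called 36.8% of all tested genes (19.7% higher and 17.1% lower in the sorted groups), with 4390 called genes that were not members, and 892 higher and 697 lower members. Nothing is read from this count, because the rule used the same libraries. Against MEF alone the test called 44.3% of genes (20.4% higher and 23.9% lower) and against iPSC alone 48.4% (22.9% and 25.5%). Each of these contrasts shares the sorted libraries with the other, and 768 higher and 604 lower members were called in both. The margin of a member is the log2 ratio of the nearest libraries of the 2 sides after adding 0.5 CPM, which was 0.44 at the median of the higher members and 0.36 of the lower. It reached at least 1, a gap of at least 2-fold, in 218 higher and 131 lower members, up to 6.56 and 4.49. Among higher members, the sorted group nearest to the end states was d6 Eff for 315 and d3 Ineff for 285, and least often d3 Eff, for 122. Among lower members it was d6 Ineff for 231, d3 Ineff for 203, d6 Eff for 171 and d3 Eff for 105.

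**Figure D1:**
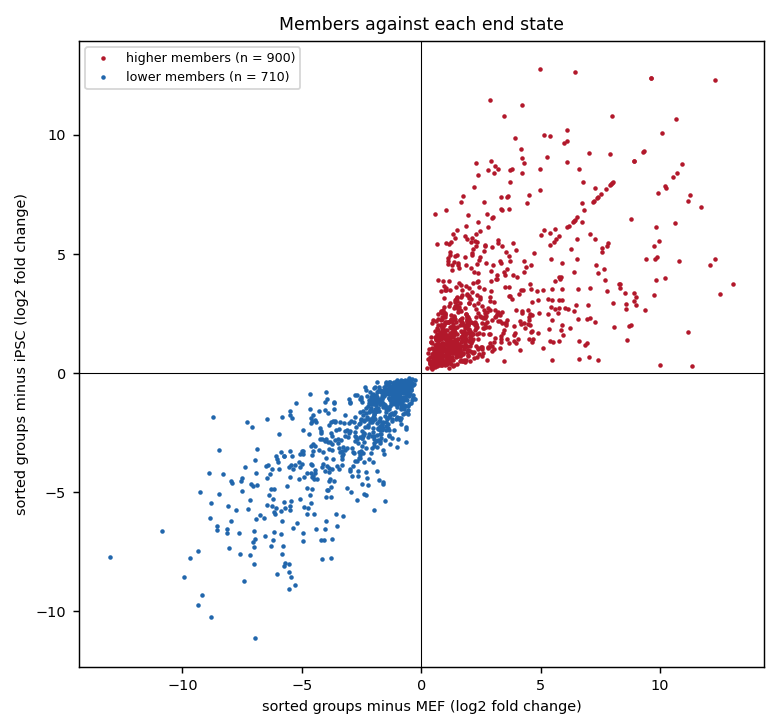
Each point is 1 member, with the log2 fold change of the mean of the 4 sorted groups against MEF on the x axis and against iPSC on the y axis (900 higher members in red, 710 lower in blue). All points lie in the upper right or lower left quadrant, as the rule requires, with medians of 1.80 against MEF and 1.92 against iPSC for the higher members and -2.0 and -1.89 for the lower.

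Among the 14 higher members with the largest margins were enzymes, membrane proteins and a transcription factor. Shisa3, which encodes an endoplasmic reticulum protein that dampens Wnt and FGF receptors, was at 0.103 and 0.279 CPM in MEF replicates 1 and 2, at 1.07 and 0.659 in iPSC replicates 1 and 2, and at 148 to 239 (median 210) in the sorted libraries. Its lowest sorted libraries were the 2 of d3 Ineff. Aldh3a1, an aldehyde dehydrogenase of cornea and stomach, was at 0.206 and 0.140 CPM in MEF, 3.27 and 2.57 in iPSC and 294 to 769 (median 421) in the sorted libraries, with its highest levels in d3 Eff. Its fall from day 3 to day 6 was called (log2 -0.88 ± 0.12 SE, adjusted p = 7.08e-04). Ehf, an ETS transcription factor of epithelia, was at 0.0516 and 0 CPM in MEF, 0.0860 and 0.329 in iPSC and 45.4 to 133 (median 94.9) in the sorted libraries, lowest in d3 Ineff.

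Prx, which encodes periaxin of myelinating Schwann cells, was at 11.9 and 4.05 CPM in MEF, 15.7 and 19 in iPSC and 440 to 933 (median 621) in the sorted libraries. Podxl, which encodes the sialomucin podocalyxin, was at 1.19 and 0.977 CPM in MEF, 38.8 and 33.0 in iPSC and 809 to 1432 (median 1057) in the sorted libraries. Both genes were highest in d6 Ineff and lowest in d6 Eff, and neither differed between days or gates by the test. Acsbg1, an acyl-CoA synthetase of brain and adrenal gland, was at 1.34 and 0.279 CPM in MEF, 0.258 and 0.132 in iPSC and 56.1 to 260 (median 148) in the sorted libraries. It was high in d3 Eff and d6 Ineff and low in the other 2 sorted groups. Itgb4, the integrin beta 4 chain of hemidesmosomes, was at 1.70 and 0.140 CPM in MEF, 6.19 and 6.65 in iPSC and 189 to 370 (median 257) in the sorted libraries. The remaining 7, Avil, Pllp, Atp12a, Sybu, Scara5, Stac and Vit, had at most 2.64 CPM in any end-state library and at least 18.2 in every sorted one. Atp12a, a proton pump gene, and Scara5, a scavenger receptor gene, rose from day 3 to day 6 (log2 1.20 ± 0.20 SE, adjusted p = 3.05e-03, and log2 1.41 ± 0.26 SE, adjusted p = 4.58e-03). Shisa3, Avil, Sybu and Prx each have an opposite-strand gene across some of their exons (Atp8a1, Tsfm, A930017M01Rik and Gm15541). Reads were counted without regard to strand, so those in the overlapping stretches could not be assigned by strand.

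The 14 lower members with the largest margins included transporters, genes of cell contacts and matrix genes. Slc16a3, the MCT4 gene printed above, was at 374 and 289 CPM in MEF, 159 and 185 in iPSC and 0.217 to 6.59 (median 2.52) in the sorted libraries. All 4 day 6 libraries, at 4.03 to 6.59 CPM, lay above the 4 day 3 libraries, at 0.217 to 1.01, and the rise was called (log2 3.05 ± 0.25 SE, adjusted p = 2.51e-05). Spp1, which encodes the secreted matrix protein osteopontin, was at 2758 and 3075 CPM in MEF, 499 and 534 in iPSC and 4.85 to 27.6 (median 8.83) in the sorted libraries. Klf2, a Krüppel-like factor of naive pluripotent cells and endothelium, was at 48.0 and 42.6 CPM in MEF, 242 and 267 in iPSC and 1.69 to 4.00 (median 2.86) in the sorted libraries, with no called difference among them.

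Gjb5, a connexin gene of gap junctions, was at 18.6 and 33.1 CPM in MEF, 35.7 and 34.5 in iPSC, 2.06 and 1.63 in d3 Ineff, 0.260 and 0.104 in d3 Eff, 0.290 and 0.558 in d6 Ineff and 0 in both d6 Eff libraries, where 3 counts would be 0.134 and 0.176 CPM. Cdh3, which encodes the epithelial P-cadherin, was at 91.3 and 30.7 CPM in MEF, 32.2 and 33.1 in iPSC and 0.130 to 3.53 (median 0.492) in the sorted libraries. These genes of cell contacts were thus under 4 CPM in every sorted library. Acan, Ndrg2, Dnm1, Bcar3, Mgarp and Pdk4 had at least 7.31 CPM in every end-state library and at most 3.29 in any sorted one.

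**Figure D2:**
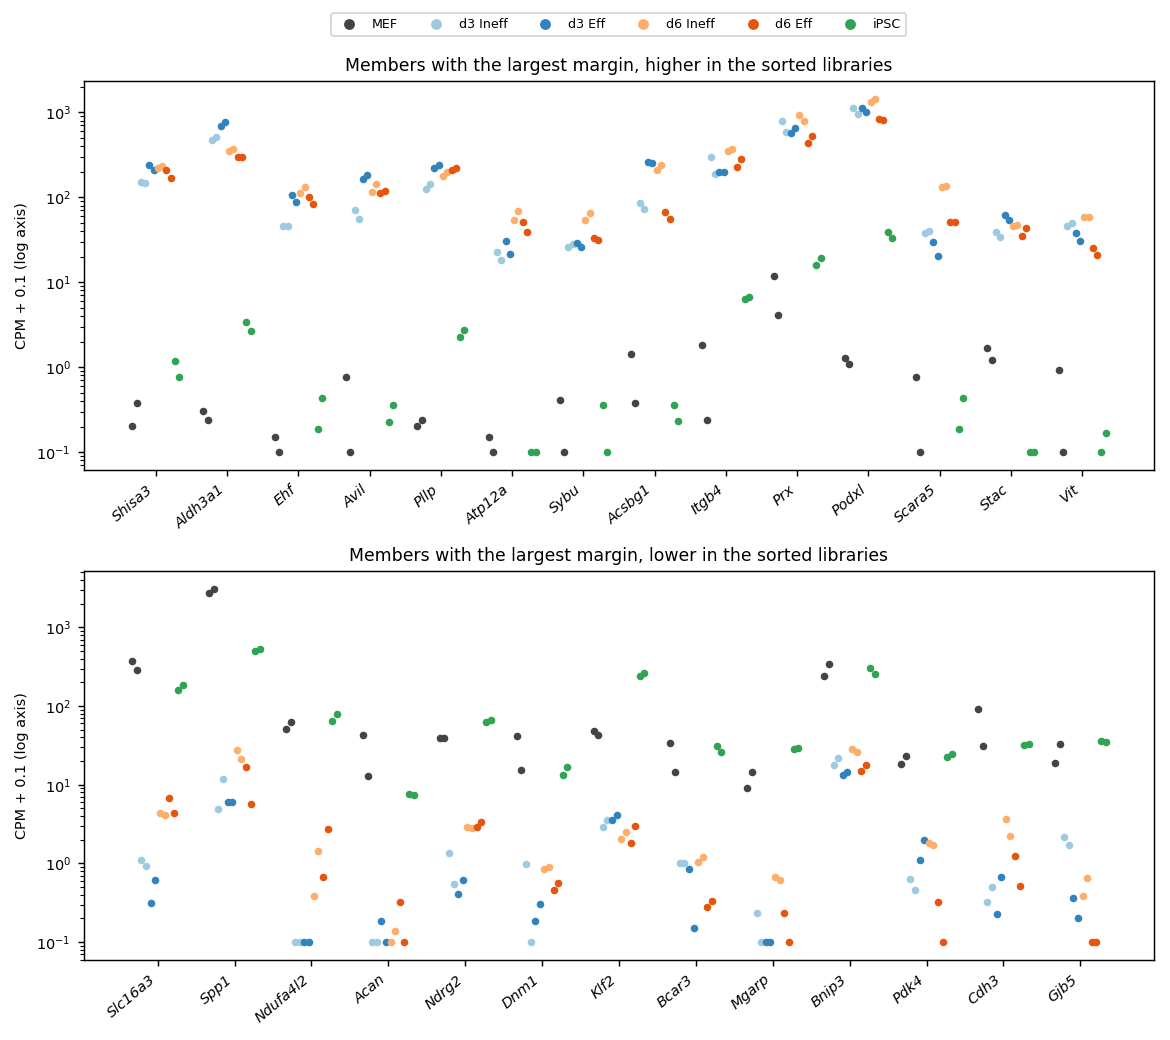
Levels of the 14 higher members (top) and 13 of the 14 lower members (bottom) with the largest margins, 1 point per library coloured by group, on a log axis of CPM plus 0.1. Every group of 8 sorted points is separated from the 4 points of MEF and iPSC, by a margin of up to 6.56 (log2) in the top panel and 4.49 in the bottom panel.

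Hypoxia genes were the list with the largest share of members, with 15 of 21 tested genes lower (71.4%) and 0 higher, against 4.37% and 5.54% of all tested genes. The list summed to 2969 and 2586 CPM in MEF, 3195 and 3404 in iPSC and 705 to 913 (median 780.5) in the sorted libraries. The count was 15 or 16 whichever library was left out. As a description from the libraries the rule used, 20 of the 21 were called lower in the contrast with both end states, where 17.1% of all tested genes were, and the median log2 was -2.07 against 0.01. Nothing is read from these calls, for this list or any other.

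Ndufa4l2, a HIF target that encodes a mitochondrial protein, was at 51.3 and 62.7 CPM in MEF and 65.4 and 79.6 in iPSC. It had no count in the 4 day 3 libraries, where 3 counts would be 0.130 to 0.156 CPM, and 0.290 to 2.64 CPM in the 4 day 6 libraries. That rise was called (adjusted p = 4.14e-03), and exons of Ndufa4l2 overlap those of Shmt2 on the opposite strand. Bnip3, the mitophagy receptor, was at 242 and 341 CPM in MEF, 303 and 256 in iPSC and 13.1 to 28.2 (median 17.7) in the sorted libraries. Vegfa, the angiogenic growth factor, was at 146 and 58.4 CPM in MEF, 35.3 and 41.5 in iPSC and 2.44 to 6.81 (median 4.65) in the sorted libraries, with no called difference among them.

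The remaining lower members of the list are named after their values were seen. Ndrg1, a stress-responsive gene, was at 56.3 and 44.4 CPM in MEF, 46.7 and 50.3 in iPSC and 2.54 to 12.3 (median 4.64) in the sorted libraries. P4ha1, the catalytic subunit of collagen prolyl hydroxylase, was at 744 and 576 CPM in MEF, 118 and 134 in iPSC and 12.7 to 66.5 (median 30.5) in the sorted libraries, highest in d6 Ineff and lowest in d6 Eff. Its gate difference was called (log2 -1.25 ± 0.16 SE, Eff minus Ineff, adjusted p = 6.36e-04). Car9 was at 18.1 and 15.9 CPM in MEF and at only 0.602 and 0.725 in iPSC, against at most 0.173 in the sorted libraries, which is 4 counts. Egln3, Ddit4 and Hilpda, 3 more HIF targets, were not members. In Egln3, for example, d6 Ineff was at 114 and 127 CPM, above MEF at 72.3 and 74.3 and below iPSC at 224 and 222.

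In the glycolysis list 13 of 23 tested genes were lower members (56.5%) and 0 were higher. The list summed to 14928 and 16443 CPM in MEF, 28144 and 28822 in iPSC and 6489 to 9024 (median 7614) in the sorted libraries, and the count was 13 to 15 without each library. In the same description 17 of the 23 were called lower (17.1% of all tested genes), with a median log2 of -1.48.

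Aldoa, which encodes aldolase, was at 2184 and 2549 CPM in MEF, 4775 and 4815 in iPSC and 600 to 752 (median 681) in the sorted libraries. Ldha, which encodes the lactate dehydrogenase chain that turns pyruvate to lactate, was at 2293 and 3641 CPM in MEF, 2696 and 2810 in iPSC and 592 to 900 (median 752) in the sorted libraries. Neither gene differed between days or gates by the test. Exons of Aldoa overlap those of Fam57b on the opposite strand.

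Other enzymes of the pathway, named after their values were seen, were Pgk1, Pgam1, Tpi1, Pfkl, Pfkp, Pfkfb3, Pdk1, Eno1 and Gapdh, and Slc2a1 of the glucose transporters. Slc2a1 is also counted among the lower hypoxia members. Pgk1 was at 517 and 893 CPM in MEF, 810 and 826 in iPSC and 144 to 241 (median 206) in the sorted libraries. Gapdh was at 714 to 1237 CPM (median 1096) in the sorted libraries against 1539 and 1816 in MEF and 2595 and 2529 in iPSC. Slc2a1 was at 300 and 255 CPM in MEF, 1245 and 1394 in iPSC and 146 to 221 (median 178) in the sorted libraries. The neuronal and stem cell glucose transporter Slc2a3 was not a member, at 18.2 and 22.3 CPM in MEF, 103 to 298 in the sorted libraries and 1879 and 1952 in iPSC. Pfkp fell from day 3 to day 6 (log2 -1.30 ± 0.21 SE, adjusted p = 2.35e-03), and Pdk1, the kinase that inhibits pyruvate dehydrogenase, rose (log2 0.81 ± 0.14 SE, adjusted p = 2.69e-03). Of the 33 nuclear genes of oxidative phosphorylation, 0 were members in either direction (2 were higher without MEF replicate 2 and 1 lower without MEF replicate 1). Their median log2 in the contrast with both end states was -0.02. In that description 3 were called higher and 1 lower (19.7% and 17.1% of all tested genes). The list summed to 6437 and 11464 CPM in MEF, 11884 and 12615 in iPSC and 8098 to 11588 (median 9897) in the sorted libraries. The 2 MEF libraries lay far apart, so the count of 0 members does not show that these genes were level.

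ATF4-list genes of amino acid metabolism and endoplasmic reticulum stress gave 15 lower members of 28 tested genes (53.6%) and 1 higher (2 without MEF replicate 1), and the 15 stayed at 15 in each refit that left out 1 library. Their summed level was 8555 and 7481 CPM in MEF, 5066 and 5163 in iPSC and 3264 to 4009 (median 3416) in the sorted libraries. In the same description 21 of the 28 were called lower and 1 higher (17.1% and 19.7% of all tested genes), with a median log2 of -1.30.

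Trib3, a pseudokinase that feeds back on ATF4, was at 137 CPM in both MEF libraries, 43.6 and 47.5 in iPSC and 2.76 to 9.40 (median 3.71) in the sorted libraries. Ddit3, which encodes the stress factor CHOP and overlaps Mars on the opposite strand, was at 42.9 and 39.0 CPM in MEF, 19.3 and 18.8 in iPSC and 2.00 to 4.29 (median 2.98) in the sorted libraries. Vldlr, a lipoprotein receptor, was at 56.8 and 30.4 CPM in MEF, 9.28 and 5.07 in iPSC and at most 1.46 in the sorted libraries. Each of these 3 was lower in iPSC than in MEF and lower again in the sorted cells.

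Asns, Chac1, Nupr1 and Mthfd2 are named after their values were seen. Asns was at 391 and 518 CPM in MEF, 919 and 938 in iPSC and 100 to 193 (median 140) in the sorted libraries. Nupr1 was at 163 and 101 CPM in MEF, 41.3 and 41.9 in iPSC and 1.64 to 25.8 (median 8.65) in the sorted libraries, lowest in d6 Eff. It fell from day 3 to day 6 (log2 -2.23 ± 0.24 SE, adjusted p = 1.70e-04) and was lower in Eff (log2 -1.42 ± 0.24 SE, adjusted p = 3.27e-03). Chac1, by contrast, rose with day (log2 1.15 ± 0.23 SE, adjusted p = 6.89e-03). Mthfd2, of mitochondrial one-carbon metabolism, was at 183 and 175 CPM in MEF, 167 and 165 in iPSC and 16.7 to 69.1 (median 50.4) in the sorted libraries, with both d6 Ineff libraries at 16.7. It was higher in Eff (log2 1.07 ± 0.13 SE, adjusted p = 4.43e-04). Atf4 itself was not a member, at 428 and 445 CPM in MEF, 238 and 236 in iPSC and 139 to 247 (median 167) in the sorted libraries, where both d6 Eff libraries reached the iPSC level.

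The higher member of the list was Slc7a11, which encodes the cystine importer xCT and is also a target of the antioxidant factor NRF2. It was at 19.3 and 29.9 CPM in MEF, 1.68 and 1.32 in iPSC and 36.9 to 360 (median 140) in the sorted libraries. The libraries of d6 Ineff, at 360 and 359 CPM, were highest and those of d3 Ineff, at 39.4 and 36.9, lowest, and the rise with day was called (log2 2.24 ± 0.15 SE, adjusted p = 1.09e-05).

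**Figure D3:**
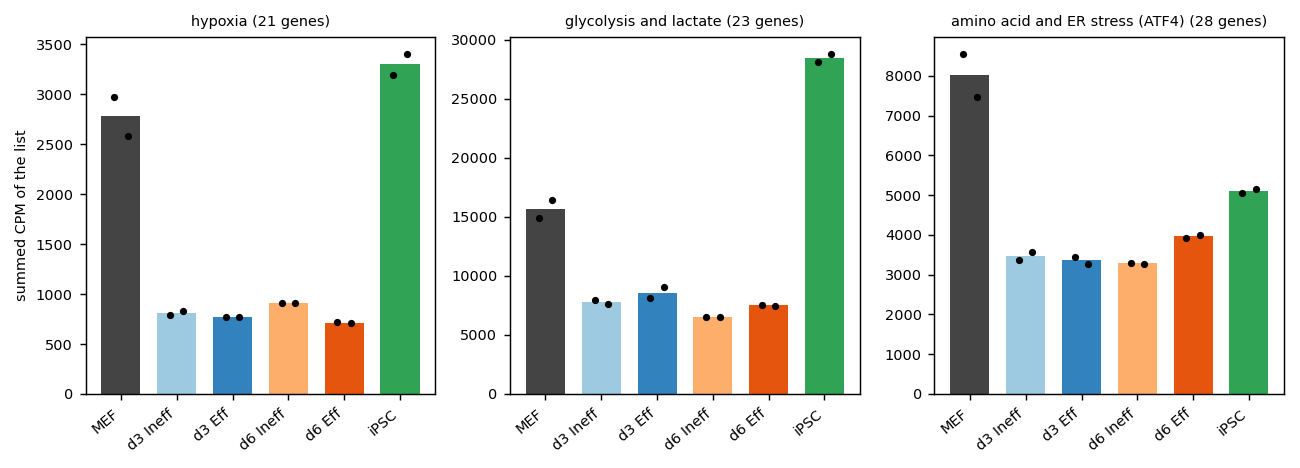
Summed CPM of 3 gene lists by group, with bars at the mean of 2 libraries and points at each library. In all 3 lists the 8 sorted libraries lie below the 4 libraries of MEF and iPSC, at 705 to 913 CPM for hypoxia, 6489 to 9024 for glycolysis and 3264 to 4009 for the ATF4 list.

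Of the 4 reprogramming factor genes only Myc was a member, at 86.9 and 51.9 CPM in MEF, 11.0 and 11.1 in iPSC and 232 to 303 (median 257) in the sorted libraries, with no called difference among them. Pou5f1, at 34.3 to 104 CPM in the sorted libraries, and Sox2, at 103 to 244, lay between MEF (at most 0.826 and 4.28) and iPSC (at least 576 and 637). Klf4, at 122 to 264 CPM in the sorted libraries, overlapped iPSC at 230 and 200 and lay above MEF at 70.2 and 25.4. Counts do not separate a factor's own locus from added copies. None of the 5 genes behind the sort markers was a member. Ly6a, for Sca1, was at 520 to 869 CPM in the Ineff groups and 8.52 to 84.1 in Eff, and Epcam was at 947 and 994 CPM in d6 Eff against 27.7 and 27.8 in d6 Ineff. Nt5e, for CD73, was at 41.5 and 32.9 CPM in d3 Eff against 2.54 and 4.12 in d3 Ineff. Fut4 and Fut9, which encode fucosyltransferases that can make the SSEA1 epitope shared by all 4 gates, were at 2.82 to 8.11 and 15.7 to 40.4 CPM in the sorted libraries, and Fut9 was higher in Eff (log2 1.04 ± 0.15 SE, adjusted p = 1.08e-03).

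Of 28 FGF and ERK feedback genes 7 were higher (25%) and 3 lower (10.7%), against 5.54% and 4.37% of all tested genes. These shares of all tested genes apply to each list below, and counts near them do not set a list apart. The FGF list gave 6 higher members with size factors of DESeq2 or without a filter on low counts. With a margin of at least 1 it gave 2 higher and 3 lower. Dusp6, a phosphatase that switches off ERK, was at 32.5 and 25.4 CPM in MEF, 54.8 and 42.0 in iPSC and 196 to 380 (median 231) in the sorted libraries. Dusp4, a related phosphatase, was at 9.45 and 5.72 CPM in MEF, 30.6 and 33.7 in iPSC and 60.1 to 107 (median 72.4), and Phlda1 was at 37.4 and 27.6 CPM in MEF, 9.63 and 6.39 in iPSC and 83.1 to 137 (median 101). None of the 3 changed with day or gate by the test. The receptor gene Fgfr1, the feedback genes Spry4 and Spred1 and the ETS factor gene Etv1 were the other higher members. The ligand genes Fgf10 and Fgf5 were lower, Fgf10 with 1 count over all 8 sorted libraries against 4.18 and 6.98 CPM in MEF and 6.62 and 5.34 in iPSC, and so was Ier3.

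In the Notch list 4 of 17 genes were higher members (23.5%, against 5.54% of all tested genes) and 0 lower. Lfng, the fringe glycosyltransferase that modifies Notch, was at 12.7 and 14 CPM in MEF, 3.22 and 1.98 in iPSC and 53.1 to 95.7 (median 66.6) in the sorted libraries. Nrarp, a feedback inhibitor and target of Notch, was at 4.75 and 6.00 CPM in MEF, 7.31 and 9.69 in iPSC and 34.7 to 73.9 (median 48.8). Both were highest in d3 Eff, without a called difference between gates. Hey2 and Hes6 were the other 2.

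BMP response genes gave 3 higher (13.6%) and 2 lower members (9.09%) of 22, against 5.54% and 4.37% of all tested genes. The lower count was 1 on unscaled CPM or without d3 Ineff replicate 2, d3 Eff replicate 1 or any 1 of the 4 day 6 libraries. Of the inhibitor-of-differentiation genes on the list, Id1, Id2 and Id4 were higher and Id3 was not a member. Id2 was at 9.45 and 16.9 CPM in MEF, 13.2 and 13.6 in iPSC and 220 to 370 (median 313) in the sorted libraries. Id1 was at 20.5 and 21.4 CPM in MEF, 29.8 and 29.9 in iPSC and 181 to 398 (median 303). Id4 was at 4.03 and 4.19 CPM in MEF, 5.03 and 3.56 in iPSC and 35.1 to 86.7 (median 49.5), and it rose with day (log2 0.83 ± 0.14 SE, adjusted p = 2.76e-03). Of the inhibitors of the same pathway, Smad7 was at 53 and 35.2 CPM in MEF, 74.6 and 69.6 in iPSC and 3.41 to 28.8 (median 20.2) in the sorted libraries, with d6 Eff at 4.99 and 3.41. Its gate difference was called (log2 -1.67 ± 0.18 SE, adjusted p = 2.51e-04). Bambi, a decoy receptor, was at 18.5 and 21.1 CPM in MEF, 13.2 and 15.6 in iPSC and 1.17 to 12.7 (median 6.23).

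TGF-beta and YAP targets gave 0 higher and 2 lower of 22 (Tgfb1 and Skil), the Wnt pathway 1 and 1 of 33 (Tcf7l1 and Rnf43, with 1 to 3 lower without each library) and the retinoid pathway 1 and 1 of 13 (Aldh1a1 and Rara, with 2 lower without iPSC replicate 1 or 2). Interferon response and antigen presentation gave 2 and 5 of 29 (6.90% and 17.2%), inflammation 2 and 0 of 29 (Tnfaip3 and Nfkbia) and immediate early genes 1 and 2 of 22 (2 higher without d6 Eff replicate 1). All tested genes gave 5.54% and 4.37%, and the Wnt list 3.03% of each. Among the interferon genes, Bst2, which encodes the virus-tethering protein tetherin, was higher, at 18.7 and 30.4 CPM in MEF, 72.5 and 70.0 in iPSC and 165 to 460 (median 317) in the sorted libraries. Irf1, a transcription factor of the response, was lower, at 25.2 and 22.6 CPM in MEF, 50.4 and 33.5 in iPSC and 3.34 to 12.1 (median 8.18), and it was lower in Eff than in Ineff (log2 -1.22 ± 0.19 SE, adjusted p = 1.84e-03).

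**Figure D4:**
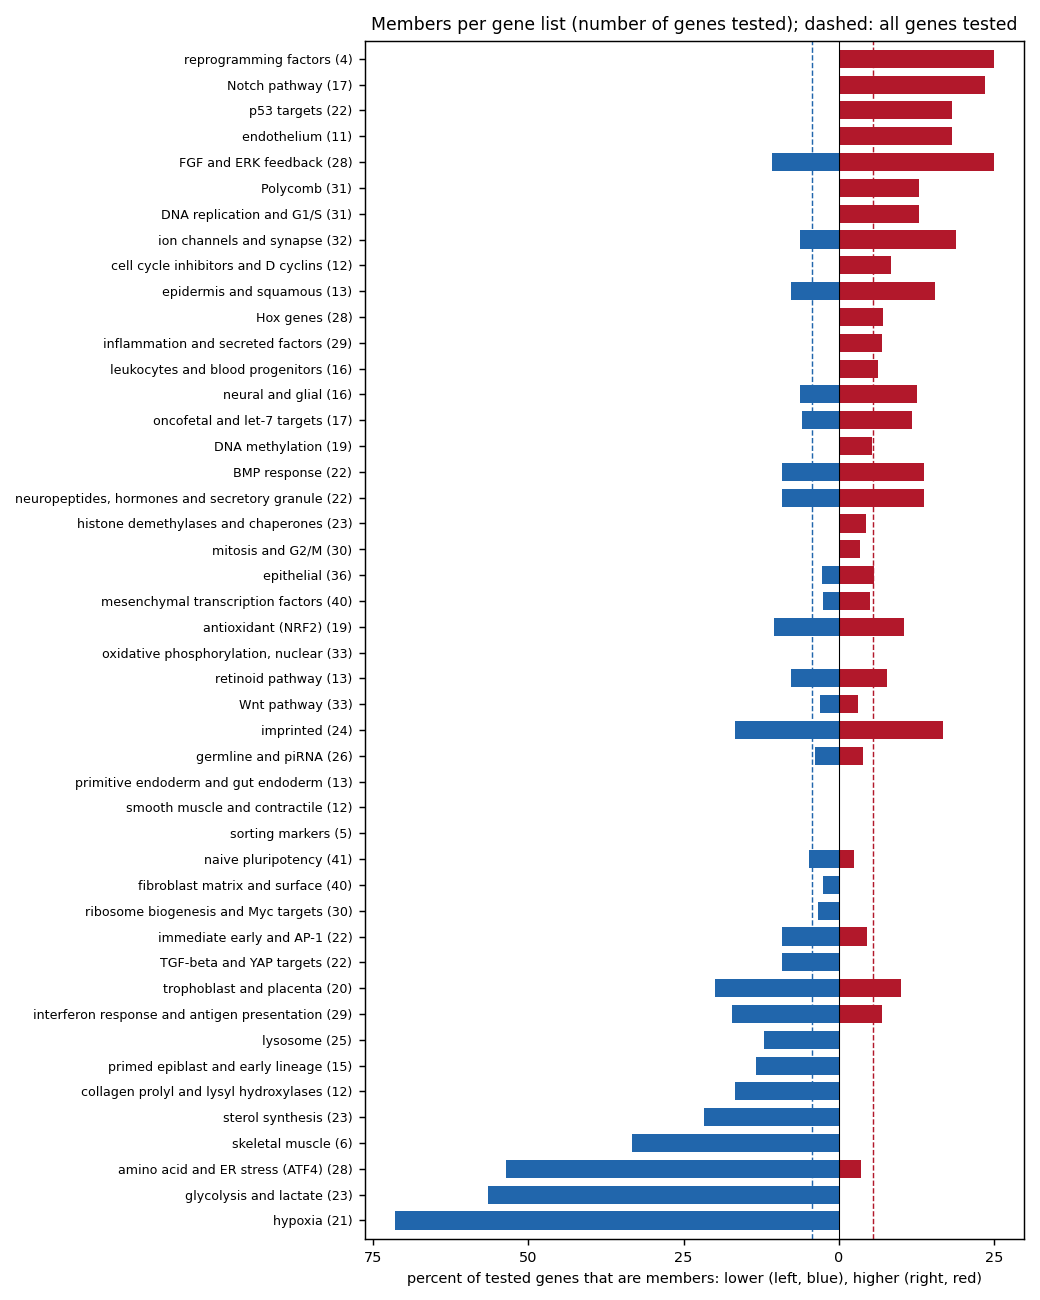
Percent of the tested genes of each gene list that were higher (red, right) or lower (blue, left) members, with the number tested in brackets and dashed lines at the 5.54% and 4.37% of all tested genes. Hypoxia (71.4%), glycolysis (56.5%) and the ATF4 list (53.6%) extend farthest to the left.

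Imprinted genes, which are expressed from 1 parental copy, gave 4 higher and 4 lower members of 24, and 5 and 1 on unscaled CPM. The share was 16.7% in each direction, against 5.54% and 4.37% of all tested genes. H19, a long non-coding RNA, was at 1695 and 1072 CPM in MEF, 28.8 and 23.2 in iPSC and 2760 to 20237 (median 11912) in the sorted libraries. Its neighbour Igf2, which encodes insulin-like growth factor 2, was at 389 and 213 CPM in MEF, 9.20 and 5.34 in iPSC and 1107 to 5103 (median 3307). In both genes the d6 Eff libraries were the lowest of the sorted ones, at 3476 and 2760 CPM for H19 and 1354 and 1107 for Igf2. H19 fell from day 3 to day 6 (log2 -1.49 ± 0.20 SE, adjusted p = 6.62e-04). Nnat and Grb10 were the other higher members.

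The lower imprinted members were Mest, Slc38a4, Impact and Dlk1. Slc38a4, an amino acid transporter, was at 139 and 135 CPM in MEF, 149 and 137 in iPSC and 17.6 to 108 (median 60.4) in the sorted libraries, where d3 Ineff was at 108 and 104 and d6 Eff at 17.6 and 18.0. It fell with day (log2 -1.16 ± 0.13 SE, adjusted p = 1.58e-04) and was lower in Eff (log2 -1.42 ± 0.13 SE, adjusted p = 8.87e-05). Mest, which overlaps Copg2 on the opposite strand, was lower in Eff as well (log2 -1.17 ± 0.23 SE, adjusted p = 6.55e-03). Of 28 Hox genes 2 were higher (Hoxa9 and Hoxd9, and 4 without MEF replicate 1) and 0 lower.

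Fibroblast matrix and surface genes gave 0 higher and 1 lower of 40 (Itga5), mesenchymal transcription factors 2 and 1 of 40, naive pluripotency genes 1 and 2 of 41 and epithelial genes 2 and 1 of 36. In that order the shares were 0% and 2.5%, 5% and 2.5%, 2.44% and 4.88%, and 5.56% and 2.78%. They were near or below the 5.54% and 4.37% of all tested genes. Without MEF replicate 1 the mesenchymal factors gave 6 higher and the naive pluripotency genes 4 lower. The mesenchymal factors gave 1 higher without MEF replicate 2 or any 1 of 7 sorted libraries, d3 Eff replicate 2 being the exception, and 2 or 3 lower without iPSC replicate 1 or 2. The fibroblast list gave 2 lower without d6 Ineff replicate 2 or iPSC replicate 1. Itga5, the fibronectin receptor chain, was at 791 and 241 CPM in MEF, 77.4 and 79.3 in iPSC and 9.49 to 46.2 (median 33.6) in the sorted libraries, and lower in Eff (log2 -1.52 ± 0.29 SE, adjusted p = 5.72e-03). L1td1, an RNA-binding protein gene of pluripotent cells, was already at 491 to 580 CPM (median 516) in the sorted libraries against 434 and 421 in iPSC and 0.103 and 0.419 in MEF. Foxd1 of the mesenchymal factors was at 10.8 and 9.63 CPM in MEF, 0.602 and 1.52 in iPSC and 35.8 to 127 (median 81.6), and was higher in Eff (log2 1.15 ± 0.19 SE, adjusted p = 3.17e-03). Oncofetal genes gave 2 higher and 1 lower of 17 (0 lower without any 1 library of d3 Ineff, d6 Ineff or d6 Eff), germline genes 1 and 1 of 26 (up to 4 lower, without MEF replicate 1, and 3 without MEF replicate 2) and primed epiblast genes 0 and 2 of 15 (Fgf5 and Gsc, and 7 lower without MEF replicate 2).

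Some markers of other cell types were members. Higher shares were 6.25% for leukocyte, 18.2% for endothelial, 15.4% for epidermal and 12.5% for neural genes, against 5.54% of all tested genes. Lower shares were 0%, 0%, 7.69% and 6.25%, against 4.37%. The leukocyte share was near that of all tested genes, and the others rest on 2 higher genes each. In such bulk samples fewer cells of a type and less RNA per cell cannot be told apart. Of 16 leukocyte and blood progenitor genes tested 1 was a higher member (2 without d6 Eff replicate 2, and 1 or 2 lower without MEF replicate 1 or 2, d3 Ineff replicate 2 or d6 Eff replicate 2), Laptm5, which encodes a lysosomal membrane protein. It was at 0.413 and 0.977 CPM in MEF, 31.8 and 34.6 in iPSC and 198 to 484 (median 284) in the sorted libraries, and the whole list of 22 genes summed to 287 to 716 CPM there against 136 and 96.2 in MEF and 84.1 and 82.4 in iPSC. Of the 22 genes 11 were under 1 CPM in every sorted library, and the rest were not. Vav1, at 0 CPM, and Csf1r, at no more than 0.464, were among the 11. Laptm5 was lower in Eff (log2 -0.82 ± 0.14 SE, adjusted p = 3.52e-03).

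Of 11 endothelial genes tested Tek and Cdh5 were higher members, and with the day 6 groups alone 5 were. As a description from the libraries the rule used, 6 of the 11 were called higher and 2 lower in the contrast with both end states. Of all tested genes 19.7% and 17.1% were, and nothing is read from these calls. The median log2 was 1.53. Tek, the angiopoietin receptor, was at 2.01 and 1.81 CPM in MEF, 5.46 and 3.76 in iPSC and 70.8 to 154 (median 128) in the sorted libraries. Cdh5, the endothelial cadherin, was at 1.12 to 6.22 CPM. The list of 13 genes summed to 125 to 235 CPM in the sorted libraries, 54.2 and 28.5 in MEF and 96.7 and 96.2 in iPSC. Of the 13 genes 3 were under 1 CPM in every sorted library, Erg (0 to 0.350) among them, and Pecam1 was at 0 to 1.62. Of 13 epidermal genes Perp and Krt10 were higher members and Sfn a lower one. In the same description 6 were called higher and 1 lower (19.7% and 17.1% of all tested genes), with a median log2 of 2.52. The epidermal list of 21 genes summed to 372 to 600 CPM in the sorted libraries, 80.0 and 86.8 in MEF and 201 and 175 in iPSC. Perp, a desmosome gene and p53 target, was at 4.28 and 10.1 CPM in MEF, 54.4 and 40.7 in iPSC and 329 to 571 (median 392) in the sorted libraries. Of the 21 genes 11 were under 1 CPM in every sorted library, Krt6a, Trp63 and Sprr1a among them. The part of other cell types in these values was not tested.

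Neural and glial markers gave 2 higher members of 16 (Insm1 and Elavl4) and 1 lower (Tubb3). Of the 20 genes on the list 10 were under 1 CPM in every sorted library, Gfap, Olig2, Pax6 and Dcx among them. Insm1, a zinc finger factor of neuroendocrine cells, was at 0.155 and 0 CPM in MEF, 3.22 and 2.31 in iPSC and 26.2 to 57.0 (median 35.8) in the sorted libraries. Tubb3, a tubulin of neurons, was at 59.4 and 51.9 CPM in MEF, 69.9 and 72.2 in iPSC and 1.79 to 6.68 (median 5.85). Ion channel and synapse genes gave 6 higher and 2 lower members of 32 (4 lower without iPSC replicate 2), Cacna2d2, Sv2b and Grik5 leading. Sv2b, a synaptic vesicle protein gene, was at 0.0516 CPM or less in the 4 end-state libraries and 3.58 to 32.2 (median 11.8) in the sorted ones, and rose with day (log2 1.42 ± 0.24 SE, adjusted p = 3.92e-03) and in Eff (log2 1.56 ± 0.24 SE, adjusted p = 2.64e-03).

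Neuropeptide and hormone genes gave 3 higher (Tac2, Edn2 and Nppb) and 2 lower members (Adm and Vgf) of 22. Tac2, which encodes neurokinin B, had no count in the 4 end-state libraries, where 3 counts would be 0.129 to 0.419 CPM. It was at 3.63 and 5.07 CPM in d3 Ineff, 16.3 and 14.6 in d3 Eff, 111 and 127 in d6 Ineff and 153 and 133 in d6 Eff. The rise from day 3 to day 6 was called (log2 3.99 ± 0.18 SE, adjusted p = 5.05e-06), as was the higher level in Eff (log2 1.05 ± 0.16 SE, adjusted p = 3.38e-03). Adm, which encodes the vasodilator adrenomedullin and is also a HIF target, was at 116 and 91.0 CPM in MEF, 9.37 and 10.3 in iPSC and 0 to 4.53 (median 1.73) in the sorted libraries.

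Trophoblast and placenta genes gave 2 higher (Ceacam1 and Plet1) and 4 lower members of 20, Gjb5, Krt7 and Ets2 among them, and summed to 104 to 213 CPM in the sorted libraries against 279 and 213 in MEF and 553 and 503 in iPSC. Skeletal muscle genes gave 0 higher and 2 lower of 6 (Des and Acta1, and 4 without MEF replicate 2), and summed to 3.47 to 17.2 CPM in the sorted libraries against 178 and 162 in MEF and 139 and 151 in iPSC. Des, the intermediate filament of muscle, was at 104 and 75.8 CPM in MEF, 30.9 and 27.5 in iPSC, 0.0520 to 0.875 in the day 3 libraries and 2.83 to 11.9 in the day 6 libraries, and its rise was called (log2 3.45 ± 0.38 SE, adjusted p = 1.69e-04). Smooth muscle genes and primitive endoderm genes, 12 and 13 tested, gave no member, though 4 primitive endoderm genes were lower without MEF replicate 2 and 1 smooth muscle gene without d3 Ineff replicate 2 or iPSC replicate 2.

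DNA replication and G1/S genes gave 4 higher and 0 lower of 31, mitosis genes 1 of 30 (Foxm1), cell cycle inhibitors 1 of 12 (Rb1, and 3 without MEF replicate 1 or d6 Eff replicate 2) and p53 targets 4 of 22 (Perp, Bbc3, Bax and Eda2r, and 7 without MEF replicate 1 or on unscaled CPM). In that order the higher shares were 12.9%, 3.33%, 8.33% and 18.2%, against 5.54% of all tested genes. Rrm1, a subunit of ribonucleotide reductase, was at 187 and 178 CPM in MEF, 260 and 251 in iPSC and 513 to 1027 (median 836) in the sorted libraries, and fell with day (log2 -0.61 ± 0.12 SE, adjusted p = 5.55e-03). Rb1, the retinoblastoma gene, was at 18.8 and 14.9 CPM in MEF, 15.4 and 12.5 in iPSC and 76.2 to 135 (median 100), and it overlaps Lpar6 and Rcbtb2 on the opposite strand. Polycomb genes gave 4 higher (12.9%) and 0 lower of 31. Phf19, a cofactor of Polycomb repressive complex 2, was at 6.25 and 3.91 CPM in MEF, 8.68 and 8.50 in iPSC and 26.5 to 62.1 (median 52.1), and Aebp2, Cbx2 and Cbx6 were the other 3. DNA methylation genes gave 1 higher of 19 (Tet3, and 3 without MEF replicate 1), histone demethylases 1 of 23 (Kdm6a, and 4 without MEF replicate 1), and ribosome biogenesis genes 1 lower of 30 (Ldha, which the glycolysis list holds too). The first 2 shares, 5.26% and 4.35%, were near the 5.54% of all tested genes, and the last, 3.33%, near 4.37%.

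Sterol synthesis gave 0 higher and 5 lower of 23 (4 to 8 lower without each library), the lysosome 0 and 3 of 25 (3 to 5 without each library) and the collagen hydroxylases 0 and 2 of 12 (P4ha1 and P4ha2). Their lower shares were 21.7%, 12% and 16.7%, against 4.37% of all tested genes. The 2 collagen hydroxylase members are also counted among the lower hypoxia members. Insig1, the sterol sensor of the endoplasmic reticulum, was at 115 and 136 CPM in MEF, 129 and 137 in iPSC and 35.6 to 65.7 (median 52.2) in the sorted libraries. Ctsl, which encodes the protease cathepsin L, was at 838 and 972 CPM in MEF, 262 and 263 in iPSC and 110 to 228 (median 188). NRF2 targets gave 2 higher (Slc7a11 and Gstm1) and 2 lower members (Hmox1 and Srxn1) of 19, with 4 higher without MEF replicate 1 and 4 lower without MEF replicate 2. Gstm1, a glutathione transferase, was at 18.1 and 18.6 CPM in MEF, 28.9 and 28.1 in iPSC and 34.2 to 157 (median 70.2), and rose with day (log2 1.40 ± 0.14 SE, adjusted p = 7.85e-05).

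How the members differed among the sorted groups was tested on contrasts that the rule did not use, though it used the same sorted libraries. Between day 6 and day 3 the test called 12.7% of all tested genes (7.12% up and 5.57% down), 19% of higher members (98 up and 73 down) and 14.9% of lower members (61 up and 45 down). Leaving out any 1 of the 8 sorted libraries gave 96 to 110 calls among higher members in place of 171, and leaving out MEF replicate 1 or 2 gave 316 or 311. Among lower members the count of 106 fell without any 1 of the 8 sorted libraries, and rose without MEF replicate 1 or 2. Tac2 led the rises among the higher members named here, beside Slc7a11 and Gstm1. The largest called changes among lower members included Igfbp2, a growth factor binding protein, at 2.01 to 2.99 CPM on day 3 and 20.8 to 36.3 on day 6 (log2 3.40 ± 0.22 SE, adjusted p = 8.31e-06), against 170 and 102 in MEF and 960 and 1100 in iPSC. Plac8 had 1 count over the 4 day 3 libraries and 0.279 to 4.70 CPM on day 6 (adjusted p = 1.62e-03). The largest falls among lower members were those of Pde8a, a phosphodiesterase gene, from 1.61 to 3.94 CPM on day 3 to at most 0.997 on day 6 (adjusted p = 1.40e-04), and Slc4a4, a bicarbonate cotransporter gene, from 1.01 to 1.95 CPM to at most 0.439 (adjusted p = 2.24e-03). Rnf128, a ubiquitin ligase gene, fell from 7.98 to 9.62 CPM on day 3 to 0.470 to 2.14 on day 6 (log2 -2.55 ± 0.35 SE, adjusted p = 7.41e-04). Gjb5 fell too (adjusted p = 0.0123), but not without d3 Eff replicate 1 (adjusted p = 0.102).

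Between the gates the test called 12.2% of all tested genes (4.08% higher in Eff and 8.07% lower), 13.9% of higher members (46 higher and 79 lower in Eff) and 12.7% of lower members (13 higher and 77 lower). The count of 125 among higher members was 56 to 79 without each of 7 sorted libraries, 85 without d3 Eff replicate 1, and 300 or 293 without MEF replicate 1 or 2. That of 90 among lower members was 46 to 59 without d3 Ineff replicate 1 or 2, d3 Eff replicate 2, d6 Ineff replicate 1 or 2 or d6 Eff replicate 2, and 157 or 167 without MEF replicate 1 or 2. Cldn11, a tight junction gene of oligodendrocytes and Sertoli cells, was at 5.6 and 8.01 CPM in d3 Ineff, 33.6 and 33.3 in d3 Eff, 14.3 and 16.1 in d6 Ineff and 64.9 and 54.8 in d6 Eff (log2 2.14 ± 0.31 SE, adjusted p = 1.78e-03), and at most 0.395 in the end states. Dmrtc2, a germline transcription factor gene, was at 14.2 to 37.4 CPM in Ineff and 60.1 to 72.1 in Eff (log2 1.64 ± 0.29 SE, adjusted p = 4.85e-03). Dhrs4, a retinal reductase gene, was at 62.7 to 67.7 CPM in Ineff and 97.3 to 220 in Eff (log2 1.24 ± 0.16 SE, adjusted p = 5.94e-04). In each of these 3 the Eff libraries lay above all Ineff libraries. In the other direction, Gmpr, a guanosine monophosphate reductase gene that overlaps Atxn1 on the opposite strand, was at 5.88 to 14.4 CPM in Ineff and 0.998 to 2.77 in Eff (log2 -2.38 ± 0.24 SE, adjusted p = 1.54e-04). Gjb5 (adjusted p = 1.36e-03) and Pde8a (adjusted p = 1.79e-03) were lower in Eff as well. The call for Lrrc15 (adjusted p = 0.0399) was lost in 9 of the 12 fits that left out 1 library.

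Whether the gate difference itself changed between days was called for 1.39% of all tested genes (0.296% up and 1.09% down), for 33 higher members (3.67%; 2 up and 31 down) and for 12 lower members (1.69%; 6 up and 6 down). These counts were 1 to 16 and 1 to 8 without each of the 8 sorted libraries, 23 and 7 without either iPSC library, and 168 to 181 and 44 without either MEF library. In the higher members Acsbg1, Itga4 and Cybrd1 the gate difference ran lower on day 6 than on day 3, and Acsbg1 alone of the 8 genes named kept its call in each fit that left out 1 library. Itga4, an integrin chain that overlaps Cerkl on the opposite strand, was at 64.2 and 60.7 CPM in d3 Ineff, 110 and 82.0 in d3 Eff, 35.5 and 51.5 in d6 Ineff and 7.48 and 6.70 in d6 Eff. Its fall with day held in every such fit (log2 -2.14 ± 0.23 SE, adjusted p = 1.58e-04). Cybrd1, an iron reductase gene, was at 73.2 and 114 CPM in d6 Ineff and at 8.06 to 16.9 in the other 3 sorted groups.

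**Figure D5:**
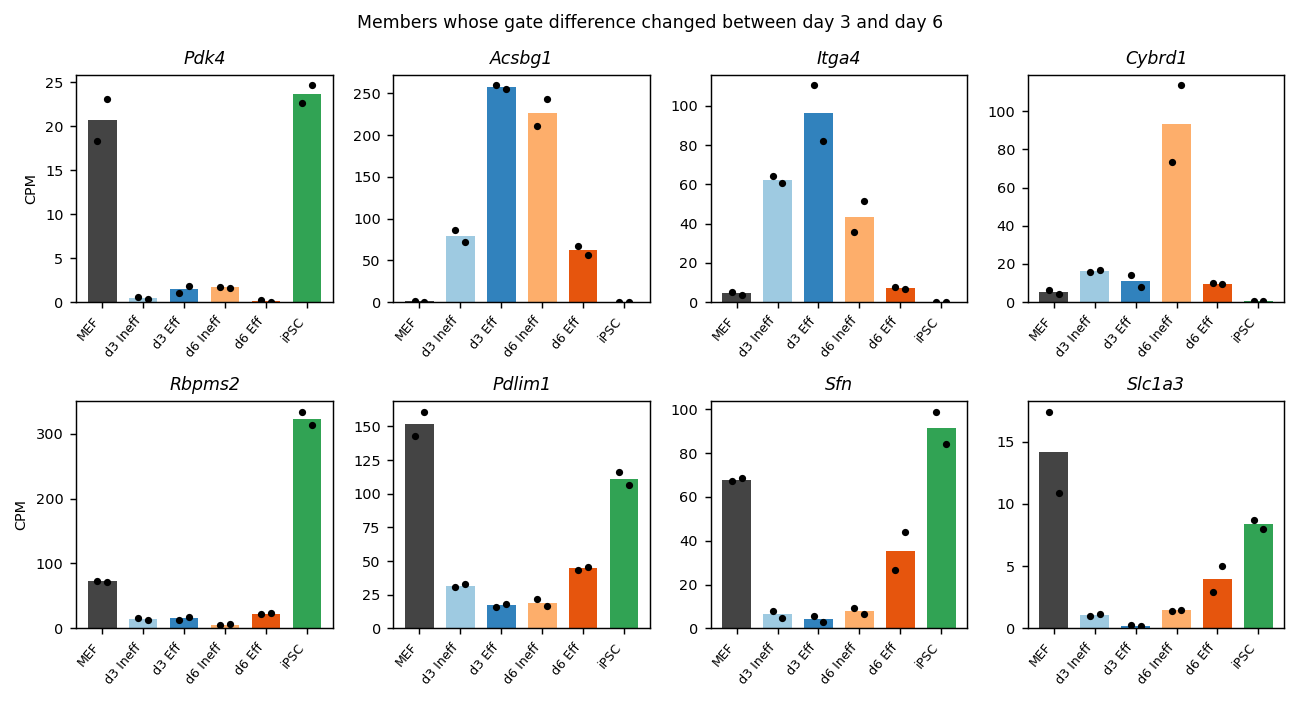
CPM by group for the 8 members named for a change in the gate difference between day 3 and day 6, with bars at the mean of 2 libraries and points at each library. Acsbg1 is highest in d3 Eff and d6 Ineff, Cybrd1 in d6 Ineff, and Sfn, Pdlim1, Rbpms2 and Slc1a3 are highest among the sorted groups in d6 Eff.

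Taking the 3 contrasts together, 248 higher members (27.6%) and 172 lower members (24.2%) were called in at least 1, against 20.7% of all tested genes. The other 652 higher and 538 lower members had no called difference among the sorted groups, which does not show that they were level. Between the end states themselves, iPSC minus MEF, the test called 52.7% of all genes (26.0% higher in iPSC and 26.7% lower), 44.7% of higher members (191 higher and 211 lower in iPSC) and 31% of lower members (77 and 143). Without iPSC replicate 1 or 2 the 220 lower members called became 122 or 115. The rule used these 4 libraries too. Id2, Bnip3 and Ldha were among the members with no called difference between iPSC and MEF, and Myc and Igf2 (lower in iPSC, log2 -2.65 and -5.36) and Klf2 (higher in iPSC, log2 2.49) among those with one.

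At the edge of the rule the separation was small. The higher members Ndufa10, Agpat3 and Spred1 and the lower members Pcnx4, Txndc12 and Capns1 lay just inside it. Agpat3, for example, was at 87.8 CPM in both its lowest sorted library and MEF replicate 2. Just outside it were Vps29, Fez1 and Cdip1, the last at 43.8 CPM in d6 Eff replicate 2 and in both iPSC libraries.

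What the members shared beyond the rule was limited. With 96.2% of higher and 97.9% of lower members protein coding, against 90.5% of annotated tested genes, non-coding genes were fewer among them. Mean levels over the 12 libraries had a median of 37.7 CPM in higher members, 12.9 in lower members and 16.8 in all. Of the higher members placed on the genome 20.8% (180 of 865) had another higher member as the next tested gene, where 11.0% of all placed tested genes did. For lower members the shares were 10.2% (70 of 689) and 8.86%. Neighbouring pairs were H19 and Igf2, Perp and Tnfaip3, and Trib1 and Myc among the higher members, and the overlapping Ndufa4l2 and Shmt2 among the lower. Rb1 and Lpar6, which overlap on opposite strands, were another higher pair. Whether such overlaps bear on the shares of neighbours was not tested. An opposite-strand gene lay across exons of 20.9% of higher and 20.6% of lower members, against 22.2% of tested genes.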

How the data were processed

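RNA was prepared with the RNeasy Micro kit and poly-A selected libraries with the NEBNext Ultra Directional kit, per the labels' protocols. The authors deposited 1 table of raw read counts per gene for each library. STAR 2.3.0, Picard 1.100, HTSeq 0.6.0 and the build mm9 are named in the submitters' processing notes. The deposited tables are marked as not stranded, so strand was not used to assign reads where genes overlap on opposite strands. Their summary lines include one for ambiguous reads. The summary lines of the tables were left out of library sizes and tests.

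All 12 libraries of 6 groups were fitted together with edgeR 4.0.16 (limma 3.58.1, R 4.3.3): genes were kept by filterByExpr, libraries scaled by TMM, and contrasts tested with the robust quasi-likelihood F-test at a Benjamini-Hochberg adjusted p under 0.05 over all 16240 genes tested. CPM values use TMM-scaled library sizes, so 3 counts correspond to 0.120 to 0.419 CPM. The SE of a log2 fold change is its size divided by the square root of F. The biological coefficient of variation was 28.0%. Symbols were found for 32860 identifiers (87.4%) in the annotation, and 47 gene lists held 1143 entries, of which 16 had no match, 13 of them mitochondrial genes. Promoters came from RefSeq on GRCm38.p6, another build than that of the counts, and were matched by symbol. The fit was tested on simulated counts.

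Genes named were the 14 members per direction with the largest margin, up to 3 per list and direction, 4 per contrast and direction among called members, the sort marker and factor genes, and 3 on each side of the rule's edge, with at least 5 CPM where the rule asks for a level. All other genes named, 64 members and comparison genes among them, were chosen after their values were seen. Some genes that the rule picks are not reported here. The members and lists were chosen with earlier results of these data known. Calls quoted as rises or falls kept their side of the threshold in each of 12 fits that left out 1 library unless stated. Alternatives were DESeq2 1.42.0, its size factors in edgeR, unscaled CPM, no filter, a replicate block, and left-out libraries or groups.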

Additional observations from a re-analysis of the deposited data

Results flagged for a closer look

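Of the 33 higher and 12 lower members called, the 8 named by the rule on the largest changes are given here. In these the gate difference (Eff minus Ineff) on day 6 differed from that on day 3 by the interaction test in edgeR, over all 16240 genes. Acsbg1, the acyl-CoA synthetase gene, gave -3.59 (log2, day 6 minus day 3, adjusted p = 5.13e-03), and kept the call in each fit that left out 1 library, with a largest adjusted p of 0.0349. The other 7 lost it in some of these fits, and are given with the largest adjusted p among them.

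Pdlim1, an actin-binding gene, gave 2.11 (adjusted p = 6.95e-03), lost without d3 Ineff replicate 2, d6 Ineff replicate 2 or d6 Eff replicate 2 (up to 0.0542). Itga4, the integrin chain, gave -3.24 (adjusted p = 0.0114), lost without d3 Ineff replicate 1 or 2, d6 Ineff replicate 2 or d6 Eff replicate 2 (up to 0.0764). Rbpms2, an RNA-binding protein gene, gave 2.03 (adjusted p = 0.0165), lost without d3 Ineff replicate 1 or 2, d3 Eff replicate 1, d6 Ineff replicate 1 or d6 Eff replicate 2 (up to 0.0931).

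Cybrd1, the iron reductase gene, gave -2.71 (adjusted p = 0.0194), lost without d3 Ineff replicate 1 or 2, d3 Eff replicate 1, d6 Ineff replicate 2 or d6 Eff replicate 2 (up to 0.101). Sfn, which encodes 14-3-3 sigma, gave 2.76 (adjusted p = 0.0271), and Pdk4, a pyruvate dehydrogenase kinase gene, gave -5.36 (adjusted p = 0.0194). Both lost the call without d3 Ineff replicate 1 or 2, d3 Eff replicate 2, d6 Ineff replicate 1 or 2 or d6 Eff replicate 2 (up to 0.132 for Sfn and 0.102 for Pdk4). Slc1a3, a glutamate transporter gene, gave 3.75 (adjusted p = 0.0287), lost in 9 of the 12 fits (up to 0.142), those without any d3 Ineff, d3 Eff, d6 Ineff or iPSC library or without d6 Eff replicate 2. The sorted levels of Pdk4 and Slc1a3 were at most 1.87 and 4.99 CPM.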

How the results depend on the processing

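The 900 higher members became 898 to 1553 and the 710 lower members 741 to 1262 when each library was left out in turn, and 218 and 131 with a margin of at least 1. With the day 3 groups alone they were 1569 and 1283, with the day 6 groups alone 1370 higher, and without both MEF replicate 2 and d6 Eff replicate 2 (added after seeing the data) 1221 lower. Size factors of DESeq2 gave 838 higher and 789 lower members, 838 and 709 of them shared, and unscaled CPM gave 1160 and 534, with 887 and 526 shared. Called genes were 2061 between days (1196 to 4064 without each library), 1974 between gates (986 to 4282, and 3053 by DESeq2) and 225 for the change of the gate difference (20 to 1349, 832 without a filter on low counts and 833 by DESeq2). The cause was not tested. In 7840 alternatives of 490 contrasts of named genes 7190 kept direction and side of the threshold, 645 lost the call and 4 gained it. In 1 the direction turned: Vit, between iPSC and MEF, went from -4.12 (log2) to 2.34 without MEF replicate 1 (range without each library -6.48 to 2.34), which left a single MEF library with no Vit count.

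Whether equal replicate numbers mean a shared origin was not settled. Over 13145 genes, the difference between replicates 1 and 2 correlated at -0.191 to 0.432 between the 15 pairs of groups, and 7 were over 0.1. The highest was MEF with d3 Ineff. MEF replicate 2, with 47.2% of uniquely placed reads outside genes, enters each pair with MEF, so these correlations cannot decide it. With the number as a replicate block, 5923 genes were called against both end states, 1975 between days, 1956 between gates and 214 for the change of the gate difference. Depth limits low members: 716 higher and 461 lower members had at least 5 CPM in every library of their higher side, and the others rest on fewer counts.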

Other observations

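Some members outside the gene lists are named here after their values were seen, and no list of their kind was fixed. Ngfr, which encodes the low-affinity neurotrophin receptor, was at 0.981 and 0.419 CPM in MEF, 15.5 and 17.3 in iPSC and 127 to 247 (median 181) in the sorted libraries. Mbp, which encodes myelin basic protein, was at 5.32 and 2.09 CPM in MEF, 5.42 and 7.31 in iPSC and 53.5 to 105 (median 70.3). Neither gene is on the neural and glial list, which gave 2 higher members of 16.

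Pink1, a kinase that marks damaged mitochondria, was at 45.5 and 53.6 CPM in MEF, 30.1 and 36.3 in iPSC and 136 to 222 (median 153) in the sorted libraries. Nnt, a proton-driven transhydrogenase that makes NADPH, was at 58.5 and 49.6 CPM in MEF, 41.8 and 40.3 in iPSC and 124 to 235 (median 181). Bmp6, a BMP ligand gene that overlaps Txndc5 on the opposite strand, was at 0.465 and 0.558 CPM in MEF, 1.33 and 1.78 in iPSC and 32.9 to 127 (median 91.0), and lower in Eff (log2 -0.91 ± 0.15 SE, adjusted p = 2.14e-03). Tbx2, a T-box repressor gene, was at 3.67 and 0.419 CPM in MEF, 0.129 and 0 in iPSC and 47.0 to 124 (median 90.5). Bcl2, the survival gene, was at 8.31 and 5.03 CPM in MEF, 1.07 and 1.12 in iPSC and 31.7 to 58.2 (median 44.3).

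On the lower side, Stc2, a secreted glycoprotein of the stress response, was at 66.7 and 36.0 CPM in MEF, 28.7 and 25.6 in iPSC and 1.1 to 6.72 (median 3.59) in the sorted libraries. Pycr1, a proline synthesis gene, was at 57.7 and 51.8 CPM in MEF, 77.3 and 85.0 in iPSC and 4.37 to 23.7 (median 15.9), and rose with day (log2 1.58 ± 0.18 SE, adjusted p = 2.46e-04). The VEGF receptor gene Flt1 was at 45.0 and 15.8 CPM in MEF, 7.31 and 5.86 in iPSC and 0.217 to 1.66 (median 0.777), and the ligand gene Vegfc at 7.90 and 10.9 CPM in MEF, 10.4 and 9.95 in iPSC and 0.174 to 1.62 (median 1.02). Both VEGF pathway genes were lower members beside Vegfa.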
